A study of Mus musculus with 36 samples.

Results

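The type I interferon alpha genes are a family of near-identical, single-exon genes that encode secreted antiviral cytokines. The 10 members followed here were Ifna1, Ifna2, Ifna4, Ifna5, Ifna6, Ifna7, Ifna9, Ifna12, Ifna13 and Ifna14. They were taken by gene symbol from a deposited expression table, and all 10 of them, among 24127 genes in the table, had a row and at least 1 read. The cells were dendritic cells grown from mouse bone marrow with the growth factor GM-CSF and enriched for CD11c, a dendritic cell surface marker. Wild-type (WT, C57BL/6J) cells were set beside cells of mice labelled LGP2-/- (Dhx58-/-, below called KO), in which the gene for the cytoplasmic RNA helicase LGP2 is targeted. Cells of each genotype received 20 ng of PAMP RNA by transfection, a poly-U/C RNA of hepatitis C virus that activates the RNA sensor RIG-I, or were kept as time-matched controls, and were collected at 1, 3 and 6 h. Each of the 12 groups (WT mock, WT PAMP, KO mock and KO PAMP, each at 1, 3 and 6 h) held 3 libraries, 36 in all. Controls are named mock in 1 label and untreated in another, and the 3 libraries of a group are given as separately plated cells. How many mice these came from is not said, so the tests below measure only the spread between plated samples.

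When RIG-I binds viral RNA in the cytoplasm it signals through the mitochondrial adaptor MAVS to the kinases that activate the transcription factor IRF3, and Ifnb1 and, among the mouse alpha genes, Ifna4 are known as the early targets of that step. Secreted interferon then binds the shared receptor made of IFNAR1 and IFNAR2 and, through JAK kinases and a transcription factor complex that holds IRF9, raises IRF7, which is known to switch on the wider set of alpha genes. Plasmacytoid dendritic cells are the best-known alpha producers, whereas the GM-CSF culture used here yields mainly conventional and monocyte-like dendritic cells.

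All 10 genes lie in 1 cluster on mouse chromosome 4 (GRCm38, chr4:88571229-88850656), 5 on each strand and each with 1 exon. Their coding sequences shared 86.9 to 94.4% of bases over 45 pairs, with a median of 90.7%. Of the stretches of 100 bases, the read length, that each gene model can yield, 83.4% were unique to the gene for Ifna5 and 85.1% for Ifna1, and 100% for Ifna4, Ifna13 and Ifna14. Between these lay Ifna6 (93.6%), Ifna12 (93.8%), Ifna9 (95.6%), Ifna7 (98.5%) and Ifna2 (99.4%). A part of the reads of Ifna1 and Ifna5, which share stretches with each other, cannot be assigned with certainty, and a smaller part of the reads of these others.

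The DNA just before the coding start was also alike, and it is shown because the members below differ in when they appear. The lines give bases -200 to -141, counted from the first coding base, from RefSeq (GRCm38.p6), 5' to 3' on the strand of the gene. Capitals mark GAAANNGAAA, the core of elements that interferon regulatory factors bind.
Ifna4, chr4:88841661-88841720, plus strand: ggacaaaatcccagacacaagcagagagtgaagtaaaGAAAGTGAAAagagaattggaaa
Ifna2, chr4:88683920-88683979, minus strand: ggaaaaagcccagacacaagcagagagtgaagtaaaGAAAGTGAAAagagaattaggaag
Ifna5, chr4:88835325-88835384, plus strand: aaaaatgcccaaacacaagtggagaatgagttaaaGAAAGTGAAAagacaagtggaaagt
Ifna1, chr4:88849887-88849946, plus strand: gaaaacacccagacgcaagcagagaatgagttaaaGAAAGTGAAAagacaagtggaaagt
Ifna6, chr4:88827216-88827275, plus strand: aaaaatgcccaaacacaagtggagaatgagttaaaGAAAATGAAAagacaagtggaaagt
Ifna9, chr4:88592526-88592585, minus strand: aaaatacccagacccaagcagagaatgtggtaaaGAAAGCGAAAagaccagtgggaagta
Ifna14, chr4:88571939-88571998, minus strand: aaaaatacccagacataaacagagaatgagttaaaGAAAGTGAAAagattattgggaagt
Ifna12, chr4:88603449-88603508, minus strand: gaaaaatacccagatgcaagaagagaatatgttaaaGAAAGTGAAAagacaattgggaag
Ifna13, chr4:88644526-88644585, minus strand: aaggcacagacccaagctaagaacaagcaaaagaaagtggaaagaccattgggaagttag

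Both strands were searched for GAAANNGAAA in windows from 250 bases before to 50 bases after the RefSeq transcript start, which 9 of the 10 members had. The window of 8 members held the pattern, in each case on the strand of the gene and beginning between bases -166 and -163, and that of Ifna13 did not. A further match stood in the windows of Ifna4 (GAAACTGAAA from base -253), Ifna2 (GAAAGAGAAA from base -239), Ifna14 (GAAAGAGAAA from base -238) and Ifna9 (GAAAATGAAA from base -125). The windows cover different DNA, as the RefSeq start is the coding start for Ifna1, Ifna2, Ifna5, Ifna9 and Ifna14. It lies 45 bases before the coding start for Ifna4, 140 for Ifna6, 68 for Ifna12 and 74 for Ifna13. Windows that begin 250 bases before the coding start cannot hold a match placed like that of Ifna4, so members cannot be compared in their further matches. The same pattern occurred in 3.44% of 32851 such windows of 27025 genes, and the window of Ifnb1 did not hold these letters. A match is a description of the sequence, not a bound site.

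The libraries held 4740909 to 14255730 reads in genes. Dhx58, the targeted gene, was higher in the mock libraries labelled KO than in WT mock libraries (451 against 132 normalized counts at 3 h, log2 difference 1.19 ± 0.08 (SE) over the 3 times, limma adjusted p = 8.35e-17). Its rise under PAMP RNA was 3.30 ± 0.14 on the log2 scale in WT cells at 6 h and lower by 2.93 in KO-labelled cells (3005 against 935 normalized counts). Gene-level counts hold reads of any exon, so the mock level goes against the label and does not check it, and genotypes below are named as labelled. All 9 dendritic cell and culture markers had reads in every group, and their summed level was lower in libraries labelled KO, at 75257 to 77687 normalized counts under PAMP RNA at 6 h against 89297 to 93333 in WT. The gap in that sum was carried by Cd74 (18901 against 23884), H2-Aa (9632 against 14430), H2-Ab1 (8247 against 11188) and Ccr7 (8537 against 11277). Zbtb46 (327 against 442) and Flt3 (12.1 against 16.6) were also lower, at levels that add little to the sum. Csf2ra (2486 against 2090), Csf2rb (26016 against 25511) and Itgax, the gene for CD11c (2509 against 2599), did not share that gap. Of the plasmacytoid dendritic cell markers, Siglech, which defines these cells, lay between 0 and 1.72 normalized counts in all libraries and Ly6d was at 0. Others were expressed, with means over all libraries of 858 for Tlr9, 459 for Tcf4, 315 for Runx2, 215 for Spib and 152 for Pacsin1.

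Interferon alpha reads were almost confined to transfected cells. The 18 mock libraries held 15 reads of the 10 genes in all, of which 13 were at 6 h, 6 in WT and 9 in libraries labelled KO, whereas the 18 PAMP libraries held 18120. The summed level of the family in WT PAMP cells was 153 ± 16.3 normalized counts (SD, n = 3) at 1 h, 377 ± 17 at 3 h and 2089 ± 219 at 6 h. In PAMP cells labelled KO it was 317 ± 5.18, 679 ± 79.9 and 3660 ± 297. A normalized count is a read count divided by a factor per library that brings libraries to a common scale, and it does not correct for gene length. In bulk RNA, a larger number of producing cells and more RNA per producing cell cannot be told apart.

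**Figure D1:**
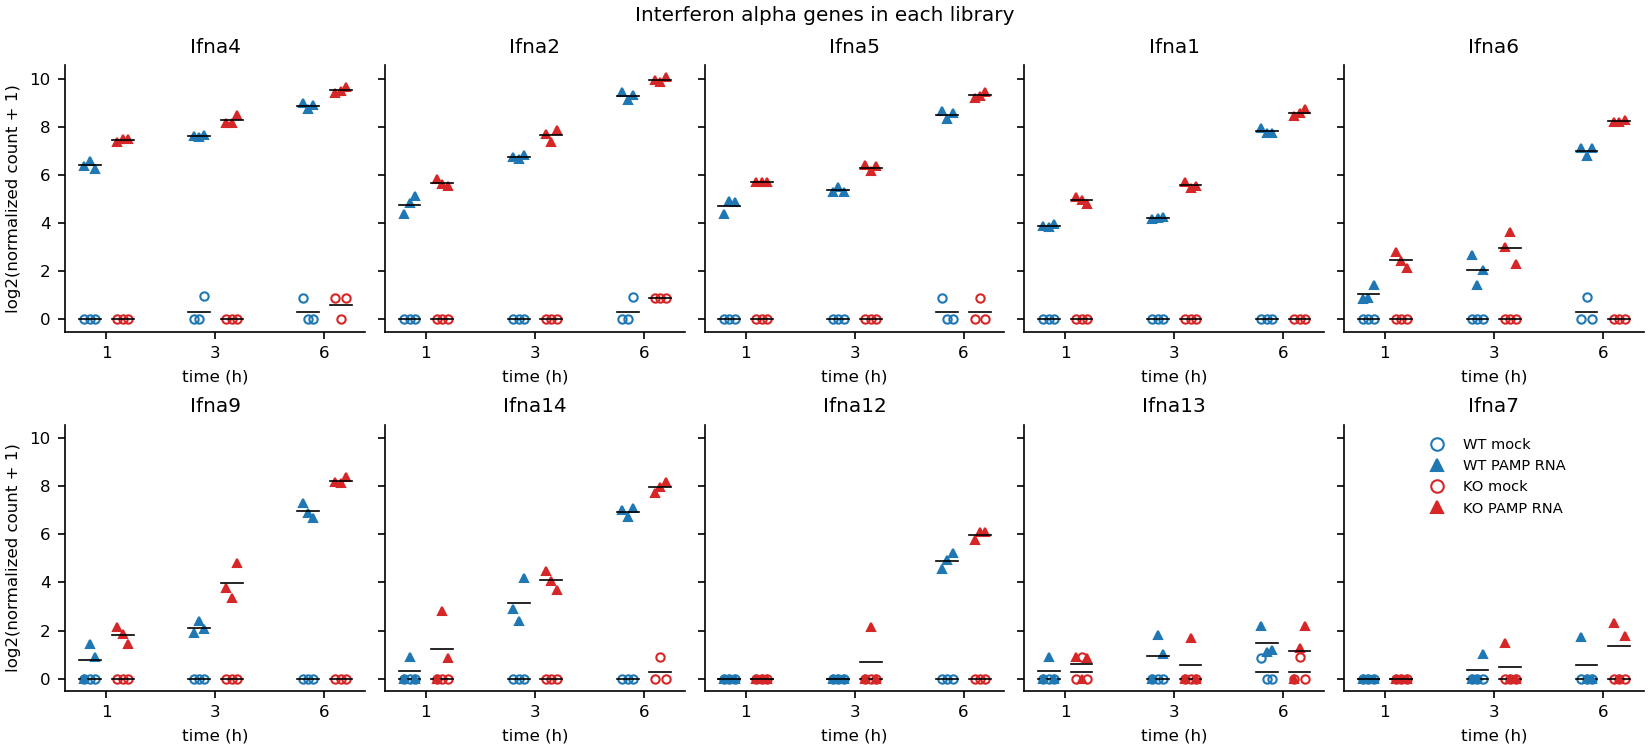
Log2(normalized count + 1) of each of the 10 interferon alpha genes in all 36 libraries, 1 panel per gene, at 1, 3 and 6 h. Open circles are mock and filled triangles PAMP libraries, blue for WT and red for those labelled KO, and short lines are means of the 3 plotted values: Ifna4 is the highest member at 1 h, and Ifna7 and Ifna13 stay at or under 3.99 normalized counts throughout.

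Ifna4, the alpha gene known as an early target of RIG-I signalling, was the member with the most reads at 1 and 3 h. Its normalized counts in the 3 WT PAMP libraries were 82.5, 95.5 and 74.9 at 1 h, 195, 191 and 201 at 3 h, then 502, 421 and 473 at 6 h. In libraries labelled KO they were 165, 179 and 182 at 1 h, 286, 280 and 358 at 3 h, then 673, 724 and 809 at 6 h. The times did not overlap within either genotype, and the genotypes did not overlap at any of the 3 times.

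Ifna2, Ifna5 and Ifna1 were present at 1 h at lower levels. Ifna2 stood at 19.6, 27.2 and 34 normalized counts in WT PAMP libraries at 1 h, at 106, 99.6 and 113 at 3 h, then at 689, 544 and 646 at 6 h. The libraries labelled KO gave 56.3, 48.2 and 45.4 at 1 h, 210, 166 and 234 at 3 h, then 983, 941 and 1060 at 6 h. Ifna2 thus rose at each step and at 6 h had the largest normalized count of the family in both genotypes.

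Ifna5 gave 19.6, 28.9 and 28.1 normalized counts in WT at 1 h, 38.1, 43.9 and 38.2 at 3 h, then 399, 315 and 381 at 6 h. With the KO label it gave 52, 51.7 and 51.3, then 83.5, 70.4 and 80.7, then 581, 627 and 696. Most of the Ifna5 rise fell between 3 and 6 h, and each KO-labelled library lay above each WT library of the same time.

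Ifna1 showed the same shape at a lower level. In WT it stood at 13.9, 13.1 and 14.5 normalized counts at 1 h, 17.2, 17.7 and 18 at 3 h, then 248, 212 and 215 at 6 h. In libraries labelled KO it stood at 32.9, 30.1 and 26.9, then 51.5, 43.1 and 45.3, then 346, 377 and 428. Between 1 and 3 h the WT level of Ifna1 moved by 0.33 on the log2 scale and did not pass the test (limma adjusted p over all genes, below).

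Ifna6, Ifna9 and Ifna14 were at most 26.6 normalized counts at 1 and 3 h and reached more than 100 at 6 h in every PAMP library. Ifna6 at 6 h stood at 139, 110 and 137 in WT and at 293, 292 and 314 with the KO label, from 5.44, 1.69 and 3.18 and from 7.11, 11.4 and 3.94 at 3 h. Ifna9 at 6 h stood at 155, 117 and 102 in WT and at 287, 275 and 330 with the KO label. Ifna14 at 6 h stood at 127, 103 and 136 in WT and at 210, 251 and 285 with the KO label. The genotypes did not overlap for any of these genes at 6 h, and they did overlap for Ifna6 and Ifna14 at 3 h.

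Ifna12 was at 0 in all WT libraries at 1 and 3 h and stood at 22.4, 29.6 and 36.3 normalized counts at 6 h, against 53.2, 67.3 and 67.7 in libraries labelled KO. Ifna13 and Ifna7 had reads but stayed at or under 3.99 normalized counts in every library. At 6 h Ifna13 averaged 2.01 ± 1.33 in WT and 1.66 ± 1.79 with the KO label, and Ifna7 0.786 ± 1.36 and 2.12 ± 2.01. A difference between genotypes in Ifna7 or Ifna13 was not detectable at this depth.

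Each comparison was fitted with limma on log2(normalized count + 1) for 11853 genes whose normalized counts averaged 10 or more over all libraries, with Benjamini-Hochberg adjustment over all of them and a threshold of 0.05. Of the 10 members, 7 passed that filter and Ifna7, Ifna12 and Ifna13 did not. A mean over all 36 libraries is set here by the PAMP libraries, so passing genes had to differ between PAMP and mock, and the counts below only describe them. Fold changes on this scale understate the change of low genes. All 12 groups share 1 estimate of spread per gene, so a p-value at 6 h also carries the spread of libraries near 0 reads. For Ifna14 the SE of the difference between genotypes in PAMP cells was 0.53 at 1 h and at 6 h alike.

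In WT cells at 1 h, 4 members were higher under PAMP RNA than in mock, where 0.945% of all tested genes were called in either direction and 0.801% as higher. These were Ifna4 (log2 difference 6.41 ± 0.26, SE; limma adjusted p = 3.82e-24), Ifna2 (4.77), Ifna5 (4.71) and Ifna1 (3.89). Ifna6 (1.07, limma adjusted p = 0.456), Ifna9 (0.78, 0.669) and Ifna14 (0.30, 0.939) did not pass. Against the limit that 3 reads over a group of mock libraries allow, Ifna4 was at least 90.3-fold higher, Ifna2 at least 28.9-fold, Ifna5 at least 27.4-fold and Ifna1 at least 14.8-fold. This limit and the intervals below cover counting error only.

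At 3 h and at 6 h all 7 tested members were higher in WT PAMP cells, where 41.6% and 65.4% of all tested genes were called and 19.6% and 32.1% were called as higher. With quantile normalization Ifna6 (0.57 in place of 2.06, limma adjusted p = 0.318) and Ifna9 (0.36 in place of 2.11, 0.516) did not pass at 3 h. The median log2 difference of the 7 was 3.89 at 1 h, 4.22 at 3 h and 7.82 at 6 h, beside medians over all tested genes of -0.01, -0.03 and -0.02. With genes that lacked mock reads at their bound, the median log2 fold over mock was 4.50 at 3 h and 8.70 at 6 h. At 6 h Ifna1 was at least 253-fold above WT mock, Ifna9 at least 140-fold and Ifna14 at least 137-fold. Ifna12, which the fit did not include, was at least 33.1-fold higher. Ifna6 had a ratio of 415, with a 95% counting interval of 77.5 to 17225.

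In cells labelled KO, 6 members were higher at 1 h, where 1.36% of all tested genes were called and 1.19% as higher. Ifna6 (log2 difference 2.45, limma adjusted p = 0.000322) and Ifna9 (1.81, 0.0238) passed there beside the 4 that passed in WT, and Ifna14 (1.23, 0.487) did not. The Ifna9 call was lost with edgeR (adjusted p = 0.151) and DESeq2 (0.0963), and when any of the 3 KO mock libraries of 1 h (0.0672 to 0.0798) or PAMP library 1 (0.171) or 2 (0.0895) of that group was left out. All 7 were higher at 3 h and at 6 h, where 50.6% and 71.7% of all tested genes were called and 23.8% and 35.1% as higher. Ifna1 reached at least 444-fold over mock at 6 h, Ifna6 at least 347-fold, Ifna9 at least 344-fold and Ifna12 at least 72.6-fold.

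The members differed in when their level was reached. Ifnb1, the single interferon beta gene of the same cluster region, was already at 44.4% of its 6 h mean at 1 h in WT PAMP cells and at 70.1% at 3 h. Ifna4 followed with 18.1% and 42%. Ifna5 (7% and 11%), Ifna1 (6.15% and 7.85%) and Ifna2 (4.3% and 17%) had a smaller part of their 6 h level early, and Ifna6 (0.878% and 2.66%), Ifna9 (0.696% and 2.7%) and Ifna14 (0.239% and 7.51%) the smallest at 1 h. The values of these last genes at 1 h rest on few reads.

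The order was similar in libraries labelled KO, with 53.7% and 64.9% for Ifnb1, 23.8% and 41.9% for Ifna4, and 1.53% and 2.49% for Ifna6. From 3 to 6 h the WT mean of Ifna4 grew 2.38 times and that of Ifna2 5.89 times. Growth over the same step was 9.11 times for Ifna5, 12.7 for Ifna1, 13.3 for Ifna14, 37 for Ifna9 and 37.5 for Ifna6. The Ifna14 level at 3 h rests on WT PAMP library 3 (17 normalized counts against 6.34 and 4.22), without which it was 4.32% of the 6 h mean and the growth 23.1 times. Without WT PAMP library 2 of 1 h, the Ifna9 percentage at 1 h was 0.341% and that of Ifna14 was 0.

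**Figure D2:**
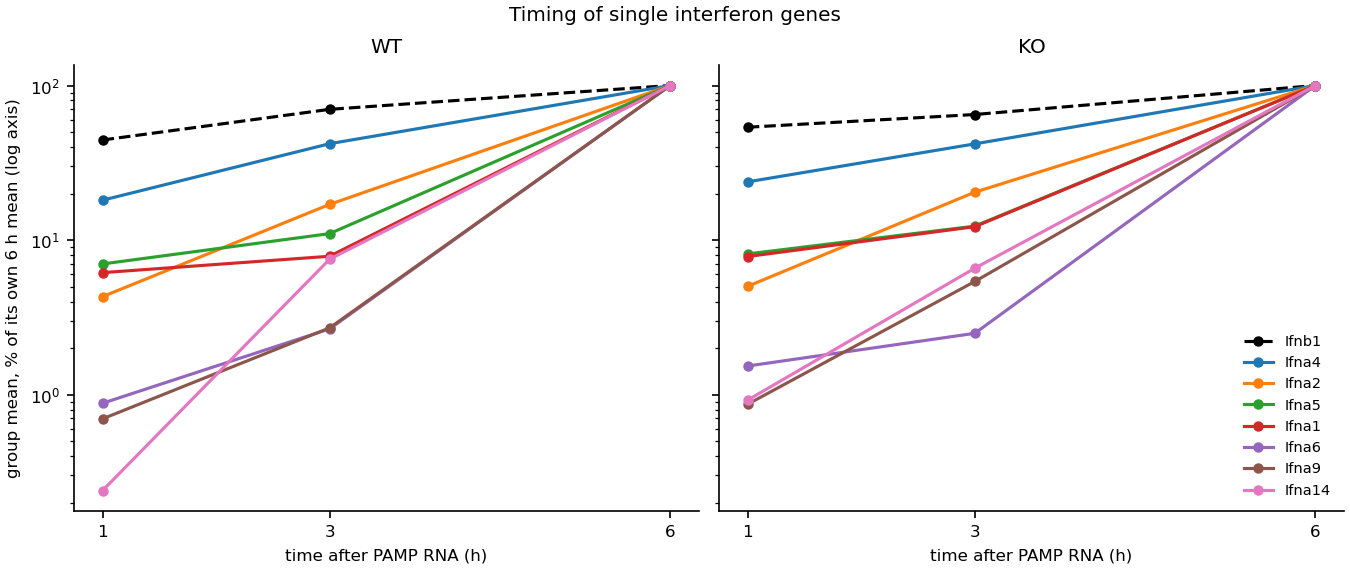
Mean normalized count in PAMP cells as a percent of the 6 h mean of the same gene and genotype, on a log axis against time, for Ifnb1 (dashed) and the 7 members with a mean of at least 10, with WT on the left and cells labelled KO on the right. Ifnb1 and Ifna4 have the largest part of their 6 h level at 1 h (44.4% and 18.1% in WT), and Ifna6, Ifna9 and Ifna14 stay under 1% there in WT.

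In WT PAMP cells, 4 members were higher at 3 h than at 1 h (27.4% of all tested genes were called as higher and 55% in either direction). These were Ifna14 (log2 difference 2.84), Ifna2 (1.97), Ifna9 (1.33) and Ifna4 (1.21), whereas Ifna6 (0.99), Ifna5 (0.65) and Ifna1 (0.33) did not pass. The Ifna9 call was lost with edgeR (adjusted p = 0.0707), with DESeq2 (0.0626), with a fit of only the compared groups (0.0599), with a pseudocount of 5 (0.0569) and without WT PAMP library 1 of 1 h (0.94, 0.109), and its difference turned to -0.14 (limma adjusted p = 0.802) with quantile normalization. Ifna5 passed with edgeR (0.0061), DESeq2 (0.0058), only the compared groups (0.00717), a pseudocount of 5 (0.00359) and quantile normalization (0.0496). Ifna6 passed without a filter (0.0175), without WT PAMP library 3 of 1 h (0.0495) and without WT PAMP library 2 of 3 h (0.0254). From 3 to 6 h all 7 were higher (29.5% of all tested genes called as higher, 56% in either direction), from Ifna4 with 1.24 to Ifna6 with 4.95. In cells labelled KO, 4 and 7 members were higher over the same steps, where 28.3% and 32.1% of all tested genes were called as higher and 58% and 59.8% in either direction. From 1 to 3 h these were 6 members with edgeR and DESeq2, which also called Ifna1 and Ifna5. The 2 tools called 3327 and 3282 of 11853 tested genes as higher.

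The make-up of the family therefore moved over time. Ifna4 made up 55.2% ± 6 (SD, n = 3) of the summed counts of the 10 genes in WT PAMP cells at 1 h, 51.9% ± 0.95 at 3 h and 22.3% ± 0.37 at 6 h. In cells labelled KO the share was 55.3% ± 3.1, 45.4% ± 2.5 and 20.1% ± 0.4. Over both genotypes the share was 34.1 percentage points higher at 1 h than at 6 h (55.2% against 21.2%) and 27.5 points higher at 3 h than at 6 h. Both had p = 0.005 in an exact permutation test within genotype (two-sided, adjusted p = 0.0075 over 3 tests), the smallest p that its 400 relabellings can give, and at each of these times all 6 libraries lay above all 6 of 6 h.

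Ifna2 rose from 17.5% of the family in WT at 1 h to 28.2% at 3 h and 29.9% at 6 h. Ifna5 went from 16.6% to 10.6% and 17.4%, and Ifna1 from 9.11% to 4.68% and 10.8%. The shares of Ifna6, Ifna9 and Ifna14 at 6 h were 6.16%, 5.96% and 5.84% in WT and 8.2%, 8.12% and 6.77% with the KO label. The Ifna4 share differed by -2.87 points between KO-labelled and WT cells over the 3 times (40.3% against 43.1%), which did not pass (exact permutation test within time, two-sided p = 0.0772, 8000 relabellings). It passed per kilobase and with all Ifna rows, as given in the last section. By time, the genotypes overlapped at 1 h but not at 3 h (42.5 to 47.1% against 50.8 to 52.6%) or 6 h (19.6 to 20.4% against 22 to 22.7%). Single times were not tested.

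**Figure D3:**
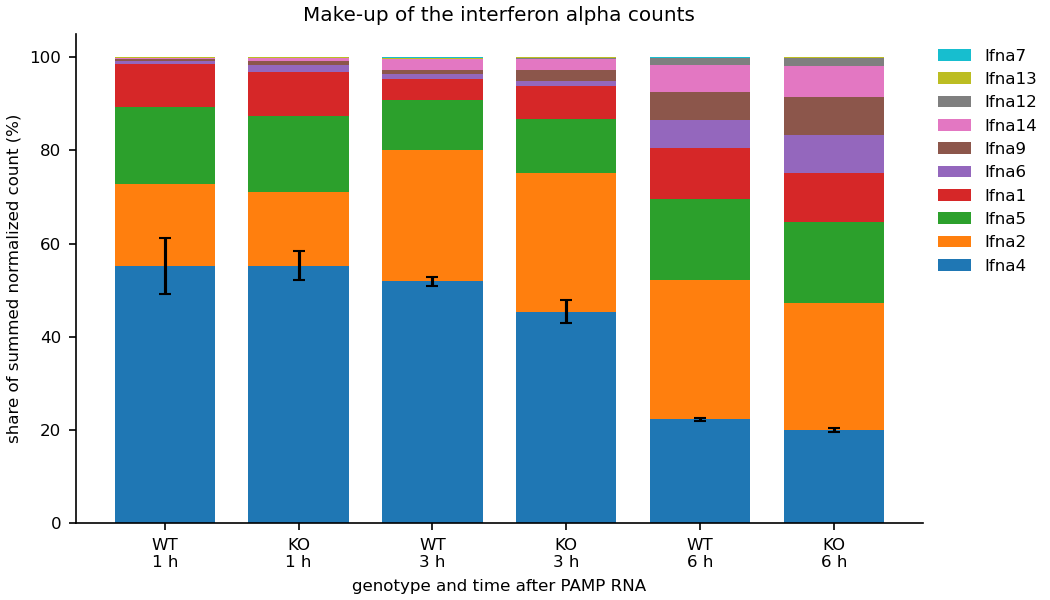
Share of each interferon alpha gene in the summed normalized counts of the 10 genes, in percent, in PAMP cells of each genotype at 1, 3 and 6 h. Stacked bars are means of 3 libraries and the black bars give 1 SD of the Ifna4 share, which goes from 55.2% at 1 h to 22.3% at 6 h in WT, while genes other than Ifna4, Ifna2, Ifna5 and Ifna1 take up a visible part mainly at 6 h.

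Levels of different genes can be compared only per length. Per kilobase of gene model (GENCODE), normalized counts in WT PAMP cells at 6 h were 829 ± 73.4 for Ifna4, 640 ± 76.8 for Ifna5, 607 ± 71.9 for Ifna2 and 395 ± 34.6 for Ifna1. Ifna6 (226 ± 28.3), Ifna9 (218 ± 46.9) and Ifna14 (214 ± 29.8) did not differ beyond their spread, and neither did Ifna5 and Ifna2. Ifna12 (36.9 ± 8.69), Ifna13 (2.45 ± 1.62) and Ifna7 (1.37 ± 2.38) came last. The order at the top rests on the length taken for Ifna2, which is 1032 bases in GENCODE and 573 in RefSeq. With RefSeq lengths Ifna2 led at 6 h with 1093 ± 130 per kilobase, above Ifna4 with 722 ± 64, while at 1 h Ifna4 led with either length (150 ± 18.5 or 131 ± 16.1, against 26.1 ± 7 or 47 ± 12.6 for Ifna2).

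PAMP cells labelled KO held more interferon alpha RNA than WT PAMP cells. All 3 libraries labelled KO lay above all 3 WT libraries for 5 of the 10 members at 1 h, 5 at 3 h and 8 at 6 h, where 13.7%, 20.6% and 20% of all tested genes did so. No member had all its WT libraries above those labelled KO, and the share of all tested genes in that direction was not computed. Ratios of the means ran from 1.86 to 4.04 at 1 h, from 1.58 to 4.75 at 3 h and from 0.83 to 2.38 at 6 h, over the 5, 7 and 9 members for which a ratio could be formed. The lowest, 0.83, was that of Ifna13, whose libraries overlapped.

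By gene the KO-labelled to WT ratio of Ifna4 was 2.08 at 1 h, 1.58 at 3 h and 1.58 at 6 h. Ifna2 gave 1.86, 1.91 and 1.59, Ifna5 2.02, 1.95 and 1.74, and Ifna1 2.17, 2.64 and 1.7. Ifna14 had a ratio of 1.78 at 3 h, which was 3.09 without WT library 3. At 6 h the later members had larger ratios, with 2.38 for Ifna9, 2.32 for Ifna6, 2.13 for Ifna12 and 2.03 for Ifna14, but whether these differ from those of the earlier members was not tested. Ifnb1 had 1.67, 1.28 and 1.39.

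The limma test of KO-labelled against WT PAMP cells at 1 h called 5 members as higher, with 9.15% of all tested genes called and 3.85% as higher. The largest were Ifna6 with 1.38 on the log2 scale (limma adjusted p = 0.0444), Ifna1 with 1.06 (0.0179) and Ifna4 with 1.05 ± 0.26 (0.00522). Ifna5 (1.01, 0.0206) and Ifna2 (0.90, 0.0199) also passed. Ifna6 did not pass with edgeR (adjusted p = 0.0656) or DESeq2 (0.113), which called the other 4 and, of 11853 tested genes, 522 and 455 as higher. The limma count moved with single libraries of the compared groups and was 1 without WT library 1, 2 without WT library 2, 1 without library 1 or 2 labelled KO and 3 without library 3 labelled KO. With a pseudocount of 0.5 it was 0.

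At 3 h, 4 members were called as higher (22.1% of all tested genes called, 12.7% as higher), namely Ifna9 (1.84, limma adjusted p = 0.00228), Ifna1 (1.35, 0.000821), Ifna5 (0.95, 0.0159) and Ifna2 (0.92, 0.00827). Ifna4 was at 0.64 with an adjusted p of 0.0728 in limma and passed with edgeR (0.68, 1.44e-06). The Ifna2 call was lost without KO-labelled library 3 of 3 h (limma adjusted p = 0.0519), and that of Ifna5 without WT library 1 (0.0561) or 3 (0.0506) or KO-labelled library 1 (0.0516). At 6 h, 3 members were called (24% of all tested genes called, 13.7% as higher), Ifna9 (1.26, limma adjusted p = 0.0371), Ifna6 (1.22, 0.0439) and Ifna5 (0.80, 0.0417). Ifna2 (0.67, 0.0549), Ifna1 (0.76, 0.0609), Ifna4 (0.66, 0.0618) and Ifna14 (1.02, 0.163) missed the threshold with limma.

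At 6 h edgeR and DESeq2 on the recovered reads each called all 7 tested members as higher (edgeR adjusted p from 3.19e-10 to 3.12e-06), and a limma fit of only the 6 h PAMP groups also called 7. Of 11853 tested genes, edgeR called 2540 (1655 as higher) and DESeq2 2296 (1503 as higher), and the share for the fit of only these groups was not computed. The limma fit of all groups called 0 members when WT library 2 or 3 or any library labelled KO of that group was left out, and 1 without WT library 1. It also called 0 with quantile normalization, with equal totals or with a pseudocount of 0.5. All 978 genotype differences of tested members in PAMP cells under the alternatives were above 0. Many of these repeat the reported value, because leaving out a library of another group cannot change a difference of group means. The genotypes also differed in marker levels under PAMP RNA at 6 h. The dendritic cell marker sum was lower and the macrophage marker sum higher in libraries labelled KO (macrophage sum 18277 to 18966 against 15107 to 16415 normalized counts). The macrophage gap was mostly that of Fcgr1 (7241 against 5348), which stood at 409 and 455 in the mock groups of 6 h. Macrophage sums of mock libraries were 15229 to 16063 with the KO label against 14178 to 14919 in WT at 6 h. They overlapped between genotypes at 1 and 3 h. Whether cell composition differed, and its part in the interferon alpha difference, was not tested.

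In mock cells the 10 members had 15 reads over 18 libraries, so a test between genotypes could hardly call any and does not show equal levels. No tested member was called there by limma, edgeR or DESeq2, and none had an unadjusted limma p under 0.05 (22.2% of all tested genes were called by limma). The difference between the genotypes in the response to PAMP RNA, that is PAMP minus mock in KO-labelled cells minus the same in WT cells, called 0 members at 1, 3 and 6 h with limma, and 0 with edgeR and DESeq2. It called 0.118%, 3.14% and 10.5% of all tested genes. Unadjusted limma p-values under 0.05 were reached by 5, 5 and 1 members, for which the share over all tested genes was not computed. The smallest adjusted p was that of Ifna1 at 3 h (1.35 ± 0.43, limma adjusted p = 0.0773). This contrast carries the error of 4 groups, of which both mock groups are at or near 0 reads. With a pseudocount of 5 it called 1, 5 and 4 members, and the share over all tested genes was not computed for that setting.

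**Figure D4:**
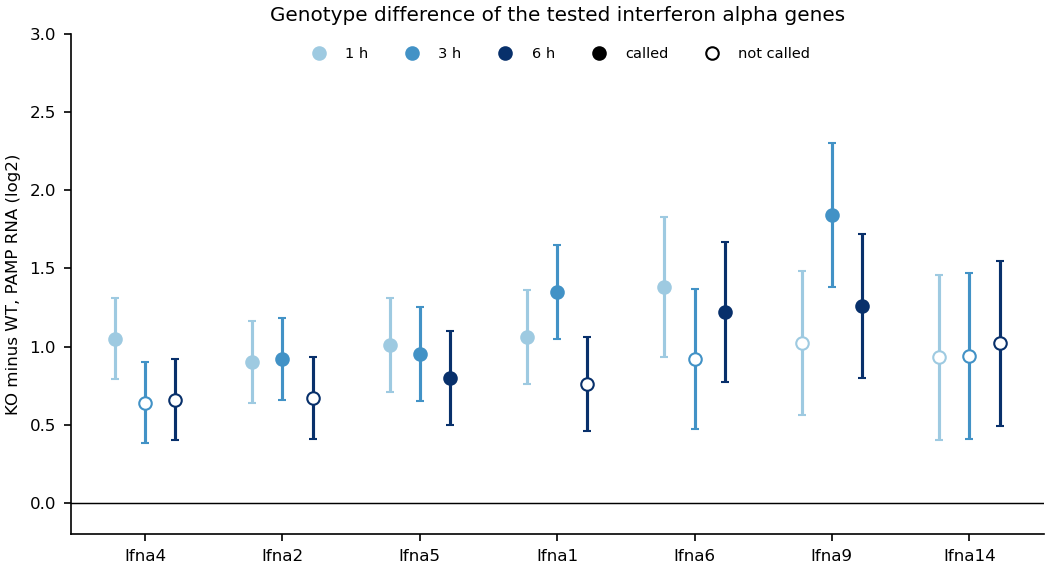
Difference between PAMP libraries labelled KO and WT PAMP libraries for the 7 tested members at 1, 3 and 6 h, in log2(normalized count + 1) from limma, with bars of 1 SE. Filled points had an adjusted p under 0.05 and open points did not, and all lie above 0.

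Members split by how their levels ran over the 12 groups. Over the group means, Pearson correlations of log2(mean + 1) were between 0.97 and 0.998 among Ifna1, Ifna2, Ifna4 and Ifna5 and between 0.978 and 0.991 among Ifna6, Ifna9 and Ifna14, and ran from 0.828 to 0.935 between these sets. The groups share their libraries and near-zero mock levels across genes, and Ifna1 and Ifna5 share stretches of read length, so these values describe a pattern and are not tested. Among 11846 other tested genes, those closest to Ifna4 were Ifnb1 (r = 0.994 over 12 groups), Phlda1 (0.984), Tnf (0.983), Il6 (0.976) and Ccl4 (0.974). Tnf and Il6 encode inflammatory cytokines and Ccl4 a chemokine. Closest to the sum of the other members were Tnf (0.992), Ccl4 (0.982), Gem (0.980), Phlda1 (0.969) and Gm14023 (0.967), with Ifnb1 in rank 7 (0.965).

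The gene for IRF7 came in rank 861 for Ifna4 (r = 0.740) and 718 for the summed other members (0.809). Ifna2, Ifna5 and Ifna1 made up the largest parts of that sum, and likeness to Ifna6, Ifna9 and Ifna14 alone was not computed. These are RNA levels, and the part of IRF7 in the level of any member was not tested. The normalized count of Irf7 in WT PAMP cells was 34.1 ± 1.57 at 1 h, 2917 ± 147 at 3 h and 9323 ± 286 at 6 h. In PAMP cells labelled KO it was 47.6 ± 1.02, 4025 ± 144 and 13999 ± 370. Irf7 did not pass the test at 1 h in WT (log2 difference to mock 0.32, limma adjusted p = 0.634), when Ifna4, Ifna2, Ifna5 and Ifna1 did, and was up by 6.19 at 3 h. At that time Ifna6, Ifna9 and Ifna14 had passed the test against mock in WT (2.06, 2.11 and 3.14), at levels of at most 5.44, 4.22 and 17 normalized counts. With quantile normalization Ifna6 and Ifna9 did not pass there. In KO-labelled cells the order was not the same, as Ifna6 (2.45, limma adjusted p = 0.000322) and Ifna9 (1.81, 0.0238) passed at 1 h. The Ifna9 call was lost with edgeR and DESeq2, and Ifna14 (1.23, 0.487) did not pass. Irf7 stood at 47.6 normalized counts in these PAMP cells at 1 h, against 30.8 in mock.

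**Figure D5:**
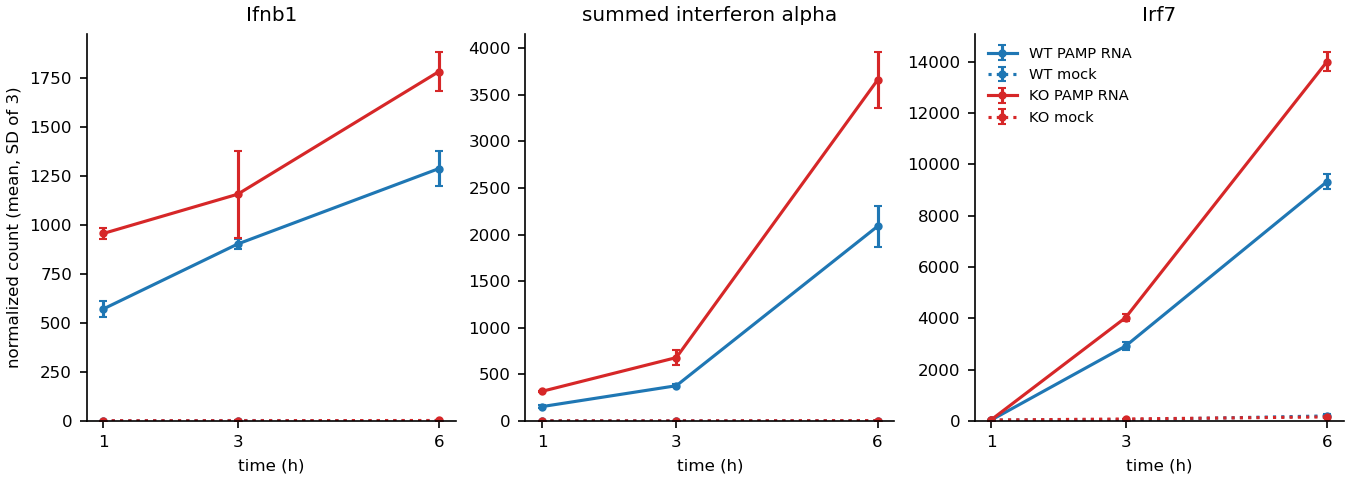
Mean normalized count of Ifnb1, of the summed 10 interferon alpha genes and of Irf7 against time, on linear axes that differ between panels, with bars of 1 SD of 3 libraries. Solid lines are PAMP and dotted lines mock cells, blue for WT and red for those labelled KO: Ifnb1 is already up at 1 h, Irf7 lies near its mock level at 1 h, and the alpha sum rises most between 3 and 6 h.

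Other interferon genes were mostly without enough reads. Of 22 type I and III interferon genes outside the 10 members, 4 passed the filter. In WT PAMP cells 1, 2 and 4 of them were higher at 1, 3 and 6 h, beside 0.801%, 19.6% and 32.1% of all tested genes. Ifnb1 stood at 544, 616 and 553 normalized counts at 1 h in WT, 879, 900 and 928 at 3 h, then 1387, 1211 and 1262 at 6 h. The summed family was at 0.268 of the Ifnb1 count at 1 h, 0.418 at 3 h and 1.62 at 6 h in WT, and at 0.331, 0.593 and 2.05 with the KO label, so the alpha genes together passed Ifnb1 in counts only at 6 h. Ifna11, Ifna15 and Ifnab, family genes outside the list, averaged 109, 52.2 and 67.7 in WT and 281, 131 and 143 with the KO label at 6 h.

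Of 23 tested genes for RNA sensing and signalling to interferon, 2, 15 and 16 were higher and 0, 1 and 4 lower in WT PAMP cells at 1, 3 and 6 h. Over all tested genes, 0.801%, 19.6% and 32.1% were called as higher and 0.143%, 22% and 33.3% as lower. Ddx58, which encodes RIG-I, was higher by 3.57 at 3 h and 3.09 at 6 h on the log2 scale, and Ifih1, which encodes the related sensor MDA5, by 4.11 and 3.75. Mavs, the adaptor gene, was lower by 0.49 at 3 h and 0.74 at 6 h (log2 differences of -0.49 and -0.74). Irf3 was lower at 6 h by a log2 difference of -0.25 (limma adjusted p = 0.00872).

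Of 8 tested interferon regulatory factor genes, 0, 6 and 7 were higher at 1, 3 and 6 h in WT and 0, 0 and 1 lower. The shares over all tested genes, here and for the endosomal and receptor lists, were 0.801%, 19.6% and 32.1% higher and 0.143%, 22% and 33.3% lower. Of 8 genes for endosomal sensing, which lead to interferon from Toll-like receptors, 0, 5 and 5 were higher and 0, 2 and 2 lower. Tlr3, the endosomal sensor of double-stranded RNA, was up by 4.05 at 6 h, Tlr7 by 1.66 and Tlr9 by 1.39. The 7 receptor and signalling genes had 0, 5 and 7 higher members, with Stat2, a transducer of the receptor signal, up by 2.84 at 6 h. Ifnar1 (0.28) and Ifnar2 (0.23) also passed at 6 h, but the sign of Ifnar1 turned with quantile normalization (-0.20) and equal totals (-0.10), and that of Ifnar2 with equal totals (-0.14).

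The 7 genes that brake interferon signalling had 2, 5 and 7 higher members in WT at 1, 3 and 6 h, beside 0.801%, 19.6% and 32.1% of all tested genes. Socs1, an inhibitor of JAK kinases, was up by 5.05 at 3 h and Usp18, which acts at the interferon receptor, by 4.86. In the difference between the genotypes in response at 6 h, 7 RNA sensing genes, 6 regulatory factors, 4 endosomal, 5 receptor and signalling and 4 brake genes were called as responding more in cells labelled KO, and 1 RNA sensing gene, Dhx58, as responding less, beside 6.67% of all tested genes called as higher and 3.81% as lower. Irf7 was among them (0.86 ± 0.25, limma adjusted p = 0.0171), which did not pass with quantile normalization (0.70, 0.0844) or without the filter (0.0715), and was 0.59 with an adjusted p of 0.111 without WT mock library 1 of 6 h. The lists overlap, so their counts cannot be added. Irf3, Irf5 and Irf7 are on both the RNA sensing and regulatory factor lists, and Irf9 is on both the regulatory factor and receptor lists.

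A summed list of 12 plasmacytoid dendritic cell markers lay between 1139 and 3586 normalized counts. Its largest parts were Tlr9 and Tcf4, which other dendritic cells also express, then Runx2, Spib and Pacsin1. The sum was 3177 to 3421 in WT and 3421 to 3586 in KO-labelled PAMP libraries at 6 h, against 1894 to 2040 and 1722 to 1841 in mock. Ccr9, also on that list, averaged 74.7 and 67.9 in these PAMP groups, against 45.1 and 48.5 in mock. Neutrophil markers summed to 103 to 226 normalized counts, B cell markers to 1.18 to 18.6 and T and NK cell markers to 1.19 to 18.8.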

How the data were processed

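The deposited table gives 1 value per gene and library, a signal that the authors normalized with DESeq2 size factors. TopHat, Cufflinks, DESeq2 and the build GRCm38 (mm10) are named per the submitters' processing notes, with no version. The annotation used for counting is also not given in the sources used here. Kits named in the labels' protocols (SMARTer and Nextera XT) do not mark strand, so reads of overlapping genes on opposite strands cannot be told apart. How reads that map to several genes were counted, which bears on near-identical members, is not stated. Each column's values were whole multiples of 1 step, and 100.0% of values came out as whole reads within 0.01, which gave the depth of 4740909 to 14255730 reads per library.

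The main test was limma 3.58.1 (R 4.3.3) with a trend on log2(value + 1) for 11853 genes with a mean of at least 10, all 12 groups in 1 fit (24 residual degrees of freedom), with Benjamini-Hochberg adjustment over all genes. The method was tested on simulated data in which all groups were drawn from the WT mock means of 6 h. Only genes with reads in those libraries were changed, so genes without mock reads, as several members are, were not covered. edgeR 4.0.16 (quasi-likelihood) and DESeq2 1.42.0 on the recovered reads were alternatives: edgeR called 7640 genes for the WT response at 6 h, limma 7754. Shares were tested by exact permutation within strata (scipy 1.17.1, Python 3.11.15). Folds over mock groups at 0 reads are bounds against 3 reads over the group. Gene models were GENCODE for GRCm38, and promoters were RefSeq (GRCm38.p6). Alternatives were other pseudocounts, filters and scalings, other tools, a fit of only the groups compared, a replicate block, and leaving out each library. The timing and genotype ratios without each PAMP library were added after seeing the data.

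The members, the pathway and marker lists and the rule for named genes were chosen with earlier results of these data known. Named were the members, Ifnb1, Irf3, Irf7, Ifnar1, Ifnar2, Ddx58, Mavs and Dhx58, the 5 genes most like Ifna4 and the 5 most like the other members, and up to 4 called genes per list with the largest WT response at 6 h and a mean of at least 50. The rule also takes 1 gene whose single values are not reported here. Lists were other type I and III interferons, RNA sensing and signalling, interferon regulatory factors, endosomal sensing, receptor and signalling, and brakes, and markers of dendritic, plasmacytoid dendritic, macrophage, neutrophil, B, and T and NK cells. Ifna11, Ifna15 and Ifnab were named after their values were seen.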

Additional observations from a re-analysis of the deposited data

Results flagged for a closer look

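Among the named genes that are not members, those below had a response to PAMP RNA that differed between genotypes by the limma test. No tested member passed, although the values of the 7 members at 3 h ran from 0.92 to 1.84 and so lay above those of several genes that did, and no test set members against other genes. The values that follow are log2 differences between the response in cells labelled KO and that in WT cells, with limma adjusted p over all tested genes. Groups of 3 libraries are too small for a test of single outlying libraries.

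At 3 h the response was larger in cells labelled KO for Socs1 (1.08, adjusted p = 0.0003), Irf8 (0.46, 6e-05), Irf1 (0.40, 0.00283) and Tyk2 (0.25, 0.0346), and smaller for Dhx58 (-3.07, 5.94e-16).

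At 6 h it was larger among sensing genes for Ifih1 (0.67, 6.84e-05), Tlr3 (0.77, 0.0038), Tlr9 (0.45, 0.00359), Tlr7 (0.23, 0.0359) and Myd88 (0.36, 0.000944), and smaller for Dhx58 (-2.93, 3.82e-15). Among regulatory factors it was larger for Irf7 (0.86, 0.0171), Irf1 (0.42, 0.000603), Irf9 (0.41, 0.0192) and Irf8 (0.28, 0.00762). Among receptor and signalling genes it was larger for Stat2 (0.44, 0.00714), Tyk2 (0.40, 8.67e-05) and Ifnar1 (0.22, 0.016). The brakes Usp18 (0.94, 0.000122), Socs1 (0.83, 0.00336) and Socs3 (0.41, 0.0433) also had the larger response there.

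Several of these calls moved with single libraries. Without WT mock library 1 of 6 h, the difference no longer passed for Irf7 (0.59, limma adjusted p = 0.111), Irf9 (0.27, 0.132), Stat2 (0.27, 0.0629), Ifnar1 (0.18, 0.0758), Tlr7 (0.23, 0.0652) and Socs3 (0.41, 0.0713). Other libraries of 6 h also ended a call when left out, namely KO mock library 1 for Irf9 (0.102), WT PAMP library 2 for Irf8 (0.0543), and KO mock library 2 (0.0578) or KO PAMP library 1 (0.0527) for Ifnar1. Tlr7 at 6 h, Socs3 at 6 h and Tyk2 at 3 h each lost the call when any 1 of 8 or 9 different libraries was left out, with adjusted p up to 0.123, 0.155 and 0.115. With quantile normalization the calls of Irf1 at both times, Tyk2 at 3 h, and Irf7, Irf8, Irf9, Tlr7, Stat2, Ifnar1 and Socs3 at 6 h were lost, and Socs3 also did not pass with edgeR (0.0508) or DESeq2 (0.0633).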

How the results depend on the processing

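Across 47 alternative settings, 36 of which left out 1 library, 5395 of 5542 single member values kept their direction and side of the threshold, 82 lost the call, 64 gained it and 1 turned. Leaving out a library outside the compared groups changes the p-value but not the difference, so many of these values could not turn. For the other named genes 10152 of 10340 kept both, and 2713 of 2820 list counts stayed within 1.5 times. The cause of the changes below was not tested unless stated.

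Fewer genes were tested with a mean of at least 50, which left 4 called members in the WT and KO responses at 3 h and 6 h and from 3 to 6 h in each genotype, 2 from 1 to 3 h in each genotype, and 0 between genotypes in PAMP cells at 6 h. That last count (3 as reported) was 7 with a pseudocount of 5, with only the compared groups, with edgeR and with DESeq2, 5 without a filter, 2 with TMM scaling and 0 with a pseudocount of 0.5, quantile normalization or equal totals. At 1 h it was 0 with a pseudocount of 0.5, and at 3 h 6 with quantile normalization. From 1 to 3 h in cells labelled KO it was 6 with edgeR, DESeq2, only the compared groups or a pseudocount of 5. The difference in response (0 as reported) called 1, 5 and 4 members at 1, 3 and 6 h with a pseudocount of 5, 2 at 3 h and 1 at 6 h without a filter, 2 at 3 h with quantile normalization and 1 at 6 h with only the compared groups. Of the alternative settings, only edgeR and DESeq2 have counts over all tested genes, so the other counts of members lack a share beside them.

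Leaving out 1 library gave 1 to 5 called members between genotypes in PAMP cells at 1 h, 3 to 4 at 3 h and 0 to 4 at 6 h, 5 to 6 in the KO response at 1 h and 3 to 5 in WT from 1 to 3 h. The Ifna4 share differed by 32.7 to 35.7 points between 1 and 6 h, by 27 to 28.2 between 3 and 6 h, and by -3.97 to -1.99 between genotypes, with -3.97 (exact permutation adjusted p = 0.005) without WT PAMP library 3 of 1 h. The share between genotypes was -3.41 points per kilobase (exact permutation adjusted p = 0.0323) and -3.19 with all Ifna rows (0.0495).

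Signs turned for Ifna9 in WT from 1 to 3 h with quantile normalization (-0.14), for Ifnar1 with quantile normalization in WT at 3 h (-0.10) and 6 h (-0.20) and in KO-labelled cells at 3 h (-0.22) and 6 h (-0.12), and with equal totals in WT at 3 h (-0.04) and 6 h (-0.10) and in KO-labelled cells at 3 h (-0.14). With equal totals they also turned for Ifnar2 at 6 h in WT (-0.14) and KO-labelled cells (-0.15) and for Dhx58 in KO-labelled cells at 6 h (-0.11). Equal totals moved the median of all genes by -0.37 in the WT response at 6 h and -0.48 in the KO response.

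Libraries of the same replicate number did not deviate together (median correlation 0.00, from -0.11 to 0.18, with 12 of 36 libraries closest to their own number), and with a replicate block 5, 4 and 3 members were called between genotypes in PAMP cells at 1, 3 and 6 h. Depth limits Ifna7, Ifna12 and Ifna13, and Ifna6, Ifna9 and Ifna14 before 6 h.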
